A study of Mus musculus with 9 samples.

Results

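Selenocysteine synthesis and insertion are carried out in animals by a small set of enzymes and RNA-binding factors, and the transcripts of 9 of them are described here across HEI-OC1 cells given hydrogen peroxide with or without a nanoreactor. The genes were Sephs2, Sephs1, Scly, Pstk, Sepsecs, Trnau1ap, Eefsec, Secisbp2 and Secisbp2l, taken by symbol from the 30411 annotated genes of the expression table, and all 9 were found and passed the filter on low counts. HEI-OC1 is an immortalised mouse line derived from the organ of Corti, the sensory epithelium of the cochlea. RNA was sequenced from 9 libraries in 3 groups of 3. The pretreated H2O2 group received a catalytic nanoreactor and then hydrogen peroxide, the H2O2 group received hydrogen peroxide alone, and the control group received neither. The agent is spelled HCS@Se, SCGS or HSC@Se in different labels and was taken to be a single preparation. No dose, exposure time or genotype is stated, and no group received the nanoreactor without peroxide. The labels number the libraries as replicate biosamples and do not say that they came from separate cultures, so p-values measure only the spread between these libraries, which may be technical.

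Selenocysteine is built on its own transfer RNA and is inserted where the ribosome meets a UGA codon that would otherwise end translation. The tRNA is charged with serine, PSTK phosphorylates that serine, and SEPSECS exchanges the phosphate for selenium carried by selenophosphate, which SEPHS2 makes from selenide. SECISBP2 binds a stem-loop called the SECIS element in selenoprotein messenger RNAs, and EEFSEC, a specialised elongation factor, brings the selenocysteine tRNA to the ribosome. The products include glutathione peroxidases and thioredoxin reductases, enzymes that remove peroxides and keep thiols reduced.

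SEPHS2 is itself a selenoprotein, so that its synthesis uses the pathway it feeds, and this sets it apart from the other 8 genes in coding sequence. Its coding sequence in the GENCODE M21 transcript held 452 codons before the stop and 1 internal TGA, at codon 63, which lies at chr7:127273731-127273733 on the minus strand of the mouse build GRCm38 and is annotated there as selenocysteine. The coding sequences of the other 8 genes held 0 internal TGA codons, and 24 mouse genes in all carry a selenocysteine annotation in that release. SEPHS1, the paralogue, has 74.4% identical residues over 391 aligned codons. At the aligned position, codon 29, it has ACA, a threonine codon. The surrounding 63 bases of both coding sequences are shown because they hold the difference between the paralogues, with the aligned codon in capitals, at chr7:127273701-127273763 on the minus strand for Sephs2 and chr2:4884467-4884529 on the plus strand for Sephs1.
Sephs2: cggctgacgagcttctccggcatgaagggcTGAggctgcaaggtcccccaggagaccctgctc
Sephs1: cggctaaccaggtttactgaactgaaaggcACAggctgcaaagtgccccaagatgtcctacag

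Promoters were matched for 8 of the 9 genes in the RefSeq table for build GRCm38.p6, with 9 promoters in all, each running from 250 bases before to 50 bases after an annotated start. The promoters of Sephs2, at chr7:127274010-127274309, and of Eefsec, at chr6:88446490-88446789, are shown because these genes, both on the minus strand, had the largest decreases of the 9 in pretreated H2O2 against H2O2 by edgeR. Capitals mark the 50 bases from the annotated start onwards.
Sephs2 promoter: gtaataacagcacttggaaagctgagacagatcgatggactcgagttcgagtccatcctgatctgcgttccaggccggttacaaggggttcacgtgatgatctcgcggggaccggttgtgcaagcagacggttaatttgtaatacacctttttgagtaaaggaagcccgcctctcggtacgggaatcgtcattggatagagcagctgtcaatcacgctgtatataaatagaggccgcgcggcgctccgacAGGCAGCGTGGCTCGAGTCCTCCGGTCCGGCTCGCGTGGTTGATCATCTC
Eefsec promoter: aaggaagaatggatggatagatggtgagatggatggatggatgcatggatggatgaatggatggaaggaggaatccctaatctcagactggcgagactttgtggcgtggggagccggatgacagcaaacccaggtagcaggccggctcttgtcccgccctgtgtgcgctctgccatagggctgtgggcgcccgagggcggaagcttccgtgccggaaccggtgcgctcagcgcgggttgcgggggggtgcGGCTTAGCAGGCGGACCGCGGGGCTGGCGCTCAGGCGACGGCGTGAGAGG
Both strands were searched for the core of the antioxidant response element, TGAC and GCA with any 3 bases between them, which 3.04% of 32851 promoters of the same length hold, and for the composite ATF4 and CEBP element, TTGCATCA, which 0.895% hold. Neither set of letters occurred in the 9 promoters, which cover 8 of the genes. Sepsecs had no promoter entry and was not searched.

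Libraries held 55395418 to 67215208 deposited counts, and the 9 genes had between 508 and 6965 counts in a library. The deposited counts behave like about 4 per sequenced fragment, so that the lowest, 508 for Scly, is worth about 127 fragments and has a counting error of about 8.87%. The pretreated H2O2 libraries stood apart in the number of genes with a count, 24043 to 24141, against 20502 to 20920 in H2O2 and 20102 to 20741 in control. Of 9 hair cell markers, Myo6 alone reached a mean of 1 FPKM (a level per length, in fragments per kilobase, scaled to the library's depth) in a group, Atoh1, Slc26a5 and Tmc1 carried no value, and the list summed to 1.56 to 1.68 FPKM in pretreated H2O2, 1.31 to 1.45 in H2O2 and 1.88 to 1.97 in control, so the label rests on the line's origin and not on these markers. Fibroblast and mesenchyme markers, 5 of 7 at 1 FPKM or more, summed to 765 to 769 FPKM in pretreated H2O2, 1030 to 1040 in H2O2 and 957 to 966 in control. That sum was carried by Vim, with means of 585 FPKM in pretreated H2O2, 781 in H2O2 and 577 in control, while Col1a1, Col1a2, Col3a1 and Pdgfrb were lowest in pretreated H2O2 and highest in control (Pdgfrb 10.1, 32.0 and 59.3 FPKM in pretreated H2O2, H2O2 and control). Supporting cell and prosensory markers, 2 of 7 at that level with no value for Sox2, Prox1 and Pax2, summed to 11.5 to 12.5 FPKM, 26.1 to 26.7 FPKM and 29.1 to 29.4 FPKM in the same order of groups, nearly all of it Cdkn1b, a cell cycle inhibitor gene. Immune markers rested on Cd68, with Ptprc and Adgre1 without a value, and summed to 3.41 to 3.76 FPKM in pretreated H2O2, 2.27 to 3.49 in H2O2 and 0.724 to 1.11 in control. Neuron markers, 1 of 4 at 1 FPKM (Tubb3) and no value for Rbfox3, summed to 3.22 to 3.89 FPKM in pretreated H2O2, 1.98 to 2.27 in H2O2 and 1.13 to 1.61 in control. Epithelium, glia and endothelium markers had 0 of 4, 0 of 4 and 0 of 3 at 1 FPKM. In pretreated H2O2, H2O2 and control, epithelium summed to 0.568 to 0.87, 0.197 to 0.345 and 0.0954 to 0.218 FPKM, glia to 0.307 to 0.502, 0.0783 to 0.139 and 0.0648 to 0.152 FPKM, and endothelium to 0.436 to 0.688, 0.0826 to 0.121 and 0.0118 to 0.0643 FPKM. The numbers of detected genes were higher in pretreated H2O2 than in both other groups without overlap, as were the neuron, epithelium, glia and endothelium sums, and the part of these values in the results below was not tested. In bulk RNA, fewer cells of a type and less RNA per cell cannot be told apart.

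The genes fell into a strongly and a weakly expressed set that kept their places in all groups. In control cells Sephs2 was highest at 23.1 ± 0.971 FPKM (SD, n = 3), followed by Eefsec at 19.9 ± 1.25, Sephs1 at 16.6 ± 0.516 and Trnau1ap at 10.1 ± 0.571 FPKM, and none of these neighbours overlapped in their 3 libraries. This order of the upper 4 genes was the same in pretreated H2O2 and in H2O2. Below them came Secisbp2l at 5.81 ± 0.563 and Secisbp2 at 3.43 ± 0.149 FPKM in control, and then Sepsecs, Scly and Pstk at 2.53 ± 0.205, 2.37 ± 0.22 and 2.36 ± 0.238 FPKM, each of which overlapped its neighbour. The median tested gene had 2.87 FPKM in control, and 6 of the 9 genes reached it. The genes that changed place were the SECIS-binding paralogues and the 3 lowest, described below.

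**Figure D1:**
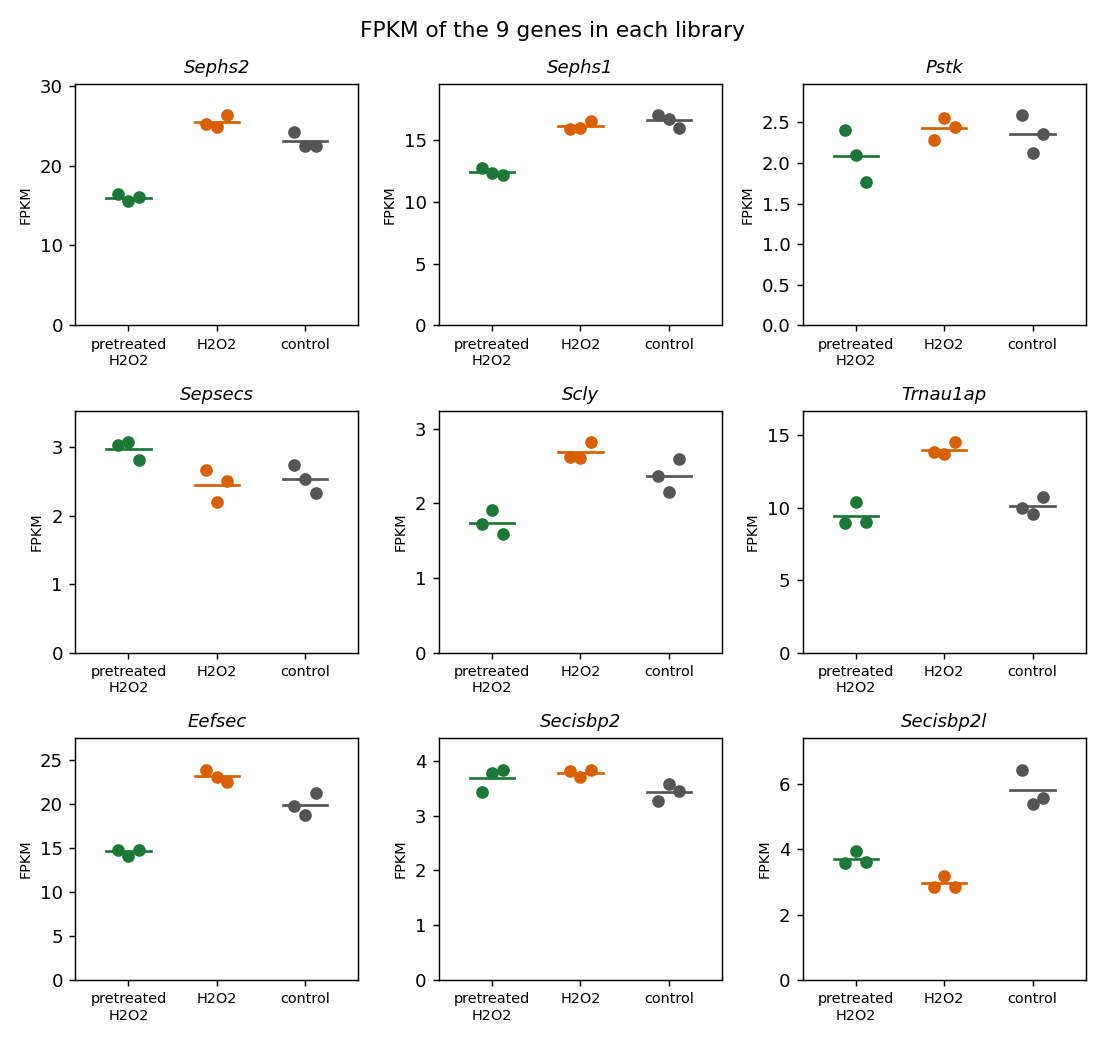
FPKM of each of the 9 genes (vertical axis, starting at 0, own scale per gene) in the 3 libraries of pretreated H2O2, H2O2 and control; each point is a library and each horizontal line a group mean. The pretreated H2O2 libraries lie below both other groups for Sephs2, Sephs1, Eefsec and Scly, the H2O2 libraries lie above both for Sephs2, Eefsec, Trnau1ap and Scly, and Secisbp2l is highest in control.

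In pretreated H2O2 against H2O2, 7 of the 9 genes passed the edgeR quasi-likelihood test at an adjusted p under 0.05, of which Sephs2, Sephs1, Scly, Trnau1ap and Eefsec were lower and Sepsecs and Secisbp2l higher. Of all 18092 genes tested 63.6% were called in this comparison, 32.4% higher and 31.3% lower, so that a call by itself is no particular feature of these genes. Their median log2 fold change was −0.35, against 0.02 over all tested genes. With a filter at a mean of 1 CPM, which left 12886 genes, these medians were −0.27 and −0.02. By limma on log2(FPKM + 1) for 11340 genes they were −0.35 and −0.12. In pretreated H2O2 against control 6 of the 9 were called, with Sephs2, Sephs1, Scly, Eefsec and Secisbp2l lower and Sepsecs higher, while 63.1% of all genes were called, 33.7% higher and 29.5% lower. The median log2 fold change of the 9 genes was −0.37 there, against 0.06 over all genes. It was −0.30 against 0.04 with the 1 CPM filter, and −0.30 against −0.065 by limma.

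In H2O2 against control 4 of the 9 were called, with Sephs2, Trnau1ap and Eefsec higher and Secisbp2l lower, and 48.7% of all genes were called, 24.6% higher and 24.1% lower. The median log2 fold change was 0.15 for the 9 genes and 0.02 for all genes. The median absolute log2 change of the 9 genes was 0.36 in pretreated H2O2 against H2O2 and 0.37 in pretreated H2O2 against control. It was 0.15 in H2O2 against control. Over all tested genes it was 0.47, 0.46 and 0.36 in the same comparisons. Those genes are not at like levels. A mean of at least 1 CPM was reached by 12886 genes, and 18092 were tested, while the 9 genes averaged 11.2 to 96.5 CPM. Each comparison shares 3 libraries with each of the others, so their values are given side by side and are not independent. Fold changes below come from the counts and FPKM values are levels.

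**Figure D2:**
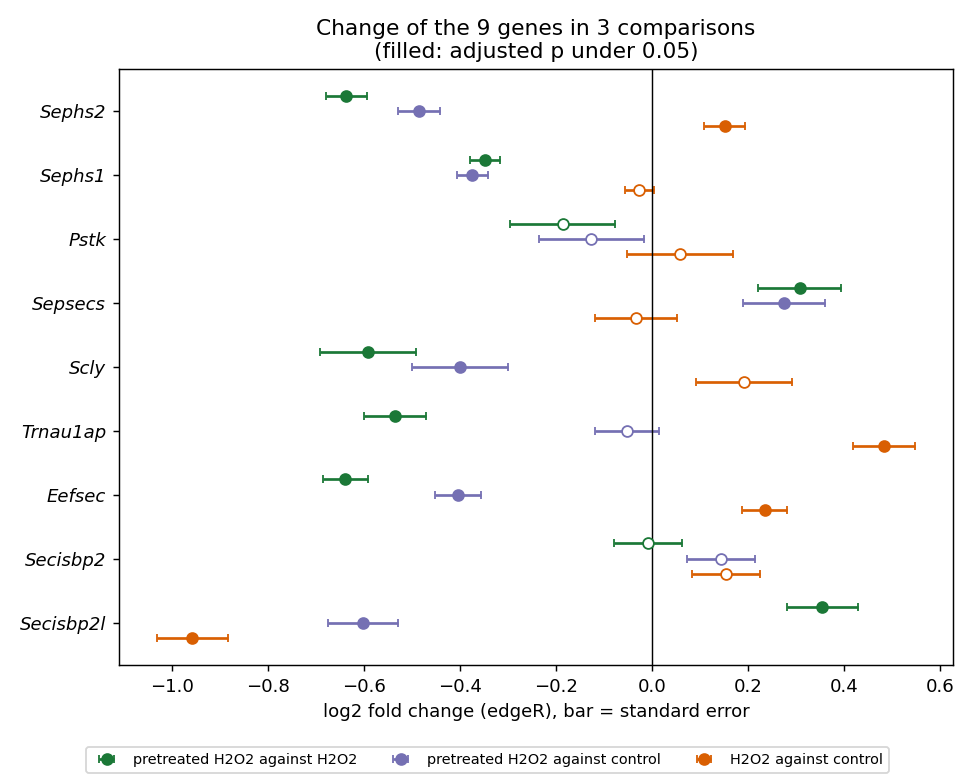
Log2 fold change (horizontal axis) of the 9 genes, top to bottom by role, with bars of 1 standard error, for pretreated H2O2 against H2O2 (green), pretreated H2O2 against control (purple) and H2O2 against control (orange); filled points passed an adjusted p under 0.05 by edgeR. Sephs2, Scly and Eefsec lie left of 0 in both comparisons of pretreated H2O2, and Secisbp2l has the widest spread, between −0.96 and 0.35.

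Among the genes of selenium supply, Sephs2 (ENSMUSG00000049091, chr7:127271879-127274055, minus strand), the selenophosphate synthetase whose TGA codon is shown above, fell 1.56-fold in pretreated H2O2 against H2O2 and rose slightly in H2O2 against control. It had 16.4, 15.6 and 16.1 FPKM in pretreated H2O2, 25.2, 24.8 and 26.3 in H2O2 and 24.2, 22.5 and 22.5 in control. All pretreated libraries were lower than all others, and all H2O2 libraries were higher than all controls. The log2 fold change was −0.64 ± 0.04 (SE) against H2O2 (edgeR, adjusted p = 5.89e-08) and −0.49 ± 0.04 against control (edgeR, adjusted p = 7.43e-07). The increase in H2O2 against control was 1.11-fold (edgeR, adjusted p = 0.0106). It was not called without H2O2 replicate 3 (edgeR, log2 fold change 0.13, adjusted p = 0.0519), and it was −0.07 once offsets for length and GC content were added (edgeR, adjusted p = 0.224).

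Sephs1 (ENSMUSG00000026662, chr2:4881564-4910557, plus strand), the paralogue with the threonine codon, for which selenophosphate synthesis is not the established role, fell in pretreated H2O2 against both other groups. It had 12.7, 12.3 and 12.2 FPKM in pretreated H2O2, 15.9, 16.0 and 16.5 in H2O2 and 17.0, 16.7 and 16.0 in control. The pretreated libraries lay below the other 6, while H2O2 and control overlapped. The decrease was 1.27-fold against H2O2 (log2 −0.35 ± 0.03, edgeR adjusted p = 8.64e-07) and 1.3-fold against control (log2 −0.37 ± 0.03, edgeR adjusted p = 4.29e-07). In H2O2 against control the log2 fold change was −0.03 ± 0.03 (edgeR, adjusted p = 0.543), and with the offsets it was 0.27 (edgeR, adjusted p = 7.1e-06).

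The ratio of Sephs2 to Sephs1 in FPKM, taken within each library, was 1.27, 1.29 and 1.32 in pretreated H2O2, 1.55, 1.58 and 1.59 in H2O2 and 1.35, 1.41 and 1.42 in control, each in rising order. The 3 groups did not overlap, with Sephs2 at a higher FPKM than its paralogue in every library, by the widest margin after peroxide alone. The order of H2O2 and control in this ratio turned with the offsets, where the log2 fold change of H2O2 against control was −0.07 for Sephs2 and 0.27 for Sephs1.

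Scly (ENSMUSG00000026307, chr1:91298338-91321075, plus strand) encodes selenocysteine lyase, which breaks selenocysteine down and returns its selenium for reuse. It had 1.72, 1.91 and 1.59 FPKM in pretreated H2O2, 2.63, 2.61 and 2.82 in H2O2 and 2.37, 2.15 and 2.59 in control. Pretreated libraries were lowest without overlap, and H2O2 lay just above control. It fell 1.51-fold in pretreated H2O2 against H2O2 (log2 −0.59 ± 0.10, edgeR adjusted p = 0.000219) and 1.32-fold against control (log2 −0.40 ± 0.10, edgeR adjusted p = 0.00395). H2O2 against control gave a log2 fold change of 0.19 ± 0.10, which did not pass (edgeR, adjusted p = 0.135).

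The enzymes that build selenocysteine on the tRNA were expressed at 1.77 to 3.07 FPKM over the libraries. Pstk (ENSMUSG00000063179, chr7:131371141-131392768, plus strand), the kinase of the seryl-tRNA, had 2.41, 2.10 and 1.77 FPKM in pretreated H2O2, 2.29, 2.56 and 2.45 in H2O2 and 2.59, 2.12 and 2.36 in control. The 3 groups overlapped, and no comparison passed: the log2 fold change was −0.19 ± 0.11 in pretreated H2O2 against H2O2 (edgeR, adjusted p = 0.156), −0.13 ± 0.11 against control (edgeR, adjusted p = 0.337) and 0.06 ± 0.11 in H2O2 against control (edgeR, adjusted p = 0.702). Without pretreated H2O2 replicate 1 the change against H2O2 was −0.30 and was called (edgeR, adjusted p = 0.0305). With the offsets it was −0.28 against H2O2 (edgeR, adjusted p = 0.0351), and the change of H2O2 against control was 0.36 (edgeR, adjusted p = 0.0167). Pstk overlaps Ikzf5, a transcription factor gene on the other strand with 4.41 to 6.11 FPKM over the libraries, and whether counting used the strand is not given in the sources used here, so reads of both genes may be mixed. Ikzf5 was called higher in pretreated H2O2 against H2O2 (log2 0.35 ± 0.08, edgeR adjusted p = 0.00193). Sephs2, Eefsec and Scly overlap Gm44729, Gm44264 and Gm17090 on the other strand, with at most 0.531, 0.0682 and 0.134 FPKM in a library.

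Sepsecs (ENSMUSG00000029173, chr5:52640087-52669708, minus strand), the synthase that places selenium on the tRNA, was the sole gene of the 9 called higher in pretreated H2O2 than in both other groups. It had 3.03, 3.07 and 2.81 FPKM in pretreated H2O2, 2.66, 2.20 and 2.50 in H2O2 and 2.74, 2.53 and 2.33 in control. The pretreated libraries lay narrowly above the other 6, and H2O2 and control overlapped. It rose 1.24-fold against H2O2 (log2 0.31 ± 0.09, edgeR adjusted p = 0.00739) and 1.21-fold against control (log2 0.28 ± 0.09, edgeR adjusted p = 0.0143), and H2O2 against control gave −0.03 ± 0.09 (edgeR, adjusted p = 0.798). The call against control was lost without control replicate 3 (edgeR, 0.21, adjusted p = 0.0737) and without pretreated H2O2 replicate 2 (edgeR, 0.25, adjusted p = 0.0515).

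The ratio of Sepsecs to Pstk in FPKM was 1.26, 1.46 and 1.59 in the pretreated H2O2 libraries, 0.859, 1.02 and 1.16 in H2O2 and 0.987, 1.06 and 1.19 in control, in rising order. The transcripts of these 2 enzymes of consecutive steps were thus at like FPKM in H2O2 and control. Sepsecs was higher than Pstk in every pretreated library, and the ratio did not overlap between pretreated H2O2 and the other groups. Reads of Ikzf5 may be mixed into the level of Pstk.

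Trnau1ap (ENSMUSG00000028898, chr4:132311763-132329538, minus strand), an RNA-binding protein that associates with the selenocysteine tRNA and is also called SECp43, had the largest increase of the 9 in H2O2 against control with TMM scaling alone. It had 8.97, 10.4 and 8.99 FPKM in pretreated H2O2, 13.8, 13.7 and 14.5 in H2O2 and 10.0, 9.55 and 10.7 in control. H2O2 stood above both other groups without overlap, and pretreated H2O2 and control overlapped. It rose 1.4-fold in H2O2 against control (log2 0.48 ± 0.07, edgeR adjusted p = 4.17e-05) and fell 1.45-fold in pretreated H2O2 against H2O2 (log2 −0.54 ± 0.07, edgeR adjusted p = 1.28e-05). In pretreated H2O2 against control the log2 fold change was −0.05 ± 0.07 (edgeR, adjusted p = 0.518), it was 0.02 with a filter at a mean of 1 CPM, and with the offsets it was −0.27 and called (edgeR, adjusted p = 0.00175). The offsets also lowered the increase in H2O2 against control to 0.17 (edgeR, adjusted p = 0.0402).

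Of the decoding factors, Eefsec (ENSMUSG00000033216, chr6:88257334-88446539, minus strand), the elongation factor for the selenocysteine tRNA, followed the order seen for Sephs2. It had 14.8, 14.1 and 14.8 FPKM in pretreated H2O2, 23.9, 23.1 and 22.5 in H2O2 and 19.7, 18.7 and 21.2 in control. No library of any group overlapped another group. It fell 1.56-fold in pretreated H2O2 against H2O2 (log2 −0.64 ± 0.05, edgeR adjusted p = 1.26e-07) and 1.32-fold against control (log2 −0.40 ± 0.05, edgeR adjusted p = 9.06e-06), and it rose 1.18-fold in H2O2 against control (log2 0.24 ± 0.05, edgeR adjusted p = 0.00104). These 3 calls stood under all 21 alternative settings.

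Secisbp2 (ENSMUSG00000035139, chr13:51651697-51684044, plus strand), the main SECIS-binding protein, passed the test in no comparison. It had 3.43, 3.77 and 3.84 FPKM in pretreated H2O2, 3.81, 3.70 and 3.84 in H2O2 and 3.27, 3.57 and 3.45 in control. Pretreated libraries overlapped both other groups, while the H2O2 libraries lay just above control. The log2 fold change was −0.01 ± 0.07 in pretreated H2O2 against H2O2 (edgeR, adjusted p = 0.92), 0.14 ± 0.07 in pretreated H2O2 against control (edgeR, adjusted p = 0.0977) and 0.15 ± 0.07 in H2O2 against control (edgeR, adjusted p = 0.0967). Against control the pretreated value was called without pretreated H2O2 replicate 1 (edgeR, 0.19, adjusted p = 0.0419), with DESeq2 (0.18, adjusted p = 0.0455) and under 2 other settings.

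Secisbp2l (ENSMUSG00000035093, chr2:125736986-125782870, minus strand), a paralogue of Secisbp2 that shares 36.8% of residues over 819 aligned codons and whose part in selenoprotein synthesis is less settled, had the widest range of the 9 with TMM scaling and was lowest after peroxide alone. It had 3.58, 3.96 and 3.60 FPKM in pretreated H2O2, 2.86, 3.19 and 2.84 in H2O2 and 6.45, 5.40 and 5.57 in control. Control was highest and H2O2 lowest, and no groups overlapped. It fell 1.94-fold in H2O2 against control (log2 −0.96 ± 0.07, edgeR adjusted p = 2.61e-07) and 1.52-fold in pretreated H2O2 against control (log2 −0.60 ± 0.07, edgeR adjusted p = 1.27e-05). It rose 1.28-fold in pretreated H2O2 against H2O2 (log2 0.36 ± 0.07, edgeR adjusted p = 0.00109), which with the offsets was 0.14 and not called (edgeR, adjusted p = 0.115). The offsets also reduced the decrease in H2O2 against control to −0.50 (edgeR, adjusted p = 0.000145).

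The order of the SECIS-binding paralogues turned round between the groups. The ratio of Secisbp2l to Secisbp2 in FPKM was 0.938, 1.04 and 1.05 in pretreated H2O2, 0.74, 0.751 and 0.862 in H2O2 and 1.51, 1.61 and 1.97 in control, in rising order. Secisbp2l exceeded Secisbp2 in every control library and was below it in every H2O2 library, the pretreated libraries lay between with the paralogues about level, and the groups did not overlap. This ratio was taken without the offsets. With them the log2 fold change of H2O2 against control was −0.50 for Secisbp2l and 0.10 for Secisbp2. That of pretreated H2O2 against H2O2 was 0.14 and −0.08, neither called (edgeR, adjusted p = 0.115 and 0.359).

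Counted by libraries instead of by the test, 7 of the 9 genes had groups without overlap in pretreated H2O2 against H2O2, 6 in pretreated H2O2 against control and 6 in H2O2 against control. The same held for 69.7%, 68.9% and 55.9% of all tested genes in these comparisons. Secisbp2 and Scly separated H2O2 from control in their libraries without passing the edgeR test.

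The trend of gene levels with transcript length and base composition differed between the groups. It bears on the paralogue pairs, whose members differ in both properties. The longest annotated transcripts of Secisbp2l, Sephs1, Pstk and Sepsecs were 6797, 5319, 5294 and 5252 bp with 41.1% to 46.1% GC, and those of the other 5 genes were 1791 to 3328 bp with 51.8% to 56.6% GC. Offsets fitted per library on both properties shifted the log2 fold change of H2O2 against control by up to 0.46, for Secisbp2l. With these offsets 1 gene was higher and 6 lower in pretreated H2O2 against H2O2, where 63.8% of all genes were called, 30.6% higher and 33.2% lower. In pretreated H2O2 against control 1 was higher and 6 lower, beside 63.4% of all genes, 32.0% higher and 31.3% lower. In H2O2 against control 4 were higher and 1 lower, beside 38.0% of all genes, 19.9% higher and 18.0% lower. The decreases of Sephs2, Sephs1, Scly and Eefsec in pretreated H2O2 were called with and without the offsets in both comparisons. Whether the trend with length and composition arose in the cells or in library preparation was not tested.

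**Figure D3:**
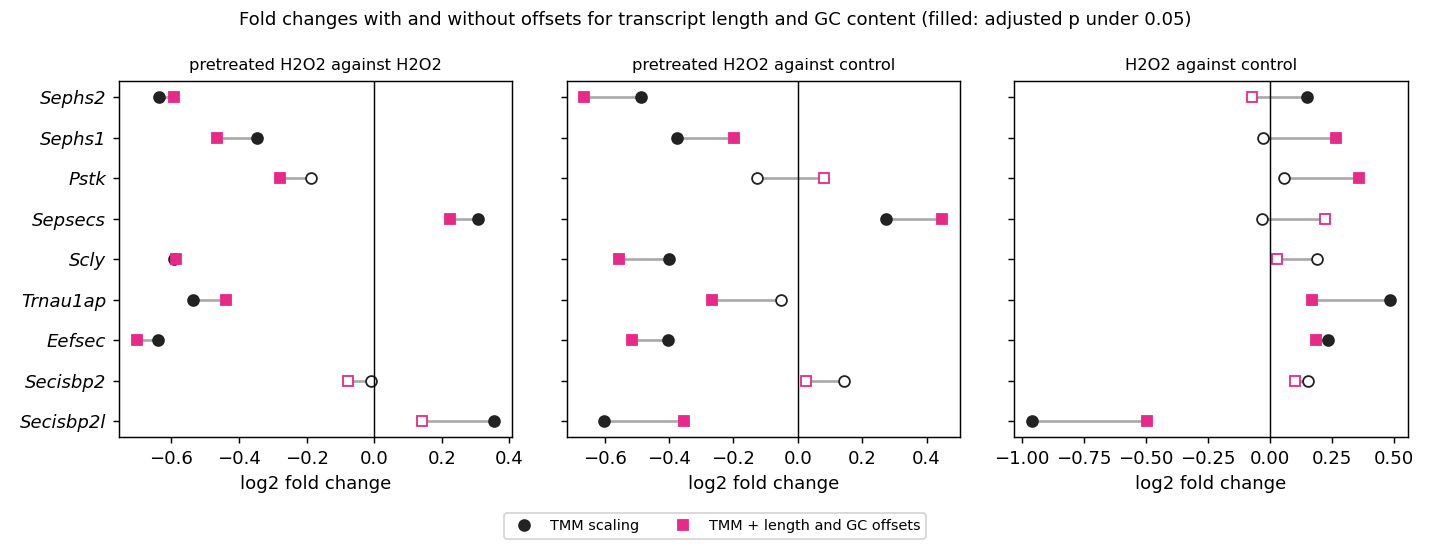
Log2 fold change (horizontal axis, own scale per panel) of the 9 genes by edgeR with TMM scaling alone (black circles) and with added per-library offsets for transcript length and GC content (pink squares), in 3 comparisons; filled symbols passed an adjusted p under 0.05. Secisbp2l moves most in H2O2 against control, between −0.96 and −0.50, and Sephs2 crosses 0 there.

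Likeness to other genes was described by Pearson's r of log2 CPM (counts scaled to library size) over the 9 libraries, without a test. The libraries fall into 3 groups, and any gene with like order and spacing of group means scores high. For Secisbp2l the 5 closest of 18091 genes were Trps1 (r = 0.989), Tmem131l (0.986), Edem3 (0.985), Zfpm1 (0.984) and Nlgn2 (0.983), and 259 genes exceeded 0.95. For Sephs2 the closest included Cd24a (0.995), Ccna2 (0.995), Vps33a (0.995) and Skap2 (0.994), with 638 genes above 0.95. Among the 9 genes, Sephs2 was closest to Eefsec (r = 0.96) and Sephs1 (0.95). Secisbp2 and Secisbp2l had r = −0.80, although Secisbp2 passed in no comparison and its group means spanned 0.154 on the log2 scale.

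Selenoproteins, the products of the pathway, moved in both directions. Of 24 genes 19 were tested. In pretreated H2O2 against H2O2, 7 were called higher and 9 lower (median log2 −0.21, Sephs2 included), beside 32.4% and 31.3% of all genes. Pretreated H2O2 against control had 9 higher and 6 lower (median 0.12), beside 33.7% and 29.5%. H2O2 against control had 10 higher and 5 lower (median 0.15), beside 24.6% and 24.1%. Calls here and in the lists below are at an adjusted p under 0.05 by edgeR. The largest change with a measured level in both groups was that of Txnrd1, the cytosolic thioredoxin reductase, with 152 ± 1.76 FPKM in pretreated H2O2, 31.4 ± 0.503 in H2O2 and 37.9 ± 0.331 in control (SD, n = 3 each). Log2 fold changes in pretreated H2O2 against H2O2 were 2.30 for Txnrd1, 0.40 for its relative Txnrd3, 0.38 for Selenos of the endoplasmic reticulum, −0.64 for mitochondrial Selenoo and −0.47 for Selenom. Against control they were 2.04, 0.34, 0.21, −0.60 and −0.14 in the same order of genes, and in H2O2 against control −0.26, −0.06, −0.17, 0.04 and 0.33, of which those of Txnrd3 and Selenoo did not pass. With the offsets the calls of Selenos against control (edgeR, 0.05, adjusted p = 0.317) and of Selenom in H2O2 against control (edgeR, 0.04, adjusted p = 0.424) were lost, and Txnrd3 in H2O2 against control was called (edgeR, −0.16, adjusted p = 0.00318). The call of Selenom against control was lost under 7 settings, among them leaving out control replicate 3 or pretreated H2O2 replicate 1 or 2.

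Genes listed as factors of the selenocysteine tRNA, with Tgs1 among them, split in direction. Of 9 tested, 4 were called higher and 3 lower in pretreated H2O2 against H2O2 (median log2 0.03), beside 32.4% and 31.3% of all genes. Pretreated H2O2 against control had 5 higher and 2 lower (median 0.18), beside 33.7% and 29.5%. H2O2 against control had 4 higher and 4 lower (median 0.07), beside 24.6% and 24.1%, or 5 and 0 with the offsets, beside 19.9% and 18.0%. Those with the largest changes in pretreated H2O2 against H2O2 were Xpot, the tRNA export receptor (0.88), Sars, the seryl-tRNA synthetase that supplies the serine (0.67), Tgs1, a cap methyltransferase (0.21), Ftsj1 (−0.48), Trmt112 (−0.36) and Xpo1 (−0.16). Against control they had 0.59, 1.05, 0.04, −0.05, 0.26 and −0.58 in the same order, and in H2O2 against control −0.29, 0.38, −0.16, 0.43, 0.63 and −0.42. Tgs1 and Ftsj1 did not pass against control. With the offsets the calls of Trmt112 against control (edgeR, 0.00, adjusted p = 0.98) and of Tgs1 (−0.05, adjusted p = 0.339) and Xpo1 (−0.01, adjusted p = 0.85) in H2O2 against control were lost, Tgs1 against control was called (edgeR, 0.14, adjusted p = 0.0058), and Xpot in H2O2 against control was 0.11. With DESeq2 size factors Xpo1 was −0.11 against H2O2 and not called (edgeR, adjusted p = 0.0574).

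Of 5 RNA-binding proteins reported on SECIS elements, 2 were called higher and 2 lower in pretreated H2O2 against H2O2 (median log2 −0.02). The shares over all genes were 32.4% and 31.3%. Pretreated H2O2 against control had 4 higher and 1 lower (median 0.39), beside 33.7% and 29.5%. H2O2 against control had 4 higher and 1 lower (median 0.28), beside 24.6% and 24.1%, or 4 and 0 with the offsets, beside 19.9% and 18.0%. The log2 fold changes in pretreated H2O2 against H2O2 were 0.82 for nucleolin (Ncl), 0.53 for Elavl1, −0.37 for Tial1 and −0.32 for the ribosomal protein gene Rpl30. Against control they were 0.30, 0.65, −0.09 and 0.39, and in H2O2 against control −0.52, 0.12, 0.28 and 0.71, where Ncl was 0.00 and not called with the offsets (edgeR, adjusted p = 0.914). Tial1 against control was not called under 10 settings, among them leaving out control replicate 1 or 2 or pretreated H2O2 replicate 2 or 3, and with the offsets it was 0.03.

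Genes of selenium entry and release moved in both directions. Of 11 tested, 3 were called higher and 5 lower in pretreated H2O2 against H2O2 (median log2 0.03), beside 32.4% and 31.3% of all genes. Pretreated H2O2 against control had 4 higher and 4 lower (median 0.35), beside 33.7% and 29.5%. H2O2 against control had 2 higher and 4 lower (median 0.04), beside 24.6% and 24.1%, or 3 and 2 with the offsets, beside 19.9% and 18.0%. The cystine transporter gene Slc7a11 had a log2 fold change of 1.71 in pretreated H2O2 against H2O2, Lrp1 1.07, the cystathionine lyase gene Cth 0.45, the glutaredoxin gene Glrx −0.86, and the selenoprotein P receptor genes Lrp8 and Lrp2 −0.29 each. Against control these were 1.54, −1.32, 0.57, −1.23, −0.78 and −0.88, and in H2O2 against control −0.17, −2.38, 0.12, −0.37, −0.50 and −0.59. Slc7a11 and Cth did not pass in H2O2 against control, although Slc7a11 was called there without H2O2 replicate 3 (edgeR, −0.30, adjusted p = 0.0214). With the offsets Slc7a11 in H2O2 against control was 0.45 and called (edgeR, adjusted p = 0.00282), and the calls of Lrp8 (edgeR, −0.03, adjusted p = 0.643) and Lrp2 (edgeR, 0.11, adjusted p = 0.387) there were lost. Lrp2 against H2O2 was not called without pretreated H2O2 replicate 2 (edgeR, adjusted p = 0.0637) or with DESeq2 (adjusted p = 0.0505).

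A list of general elongation factors and related genes was followed beside Eefsec. Of 13 tested, 3 were called higher and 8 lower in pretreated H2O2 against H2O2 (median log2 −0.16), beside 32.4% and 31.3% of all genes. Pretreated H2O2 against control had 9 higher and 2 lower (median 0.29), beside 33.7% and 29.5%. H2O2 against control had 10 higher and 1 lower (median 0.33), beside 24.6% and 24.1%. Log2 fold changes in pretreated H2O2 against H2O2 were 0.27 for Eif5a2, 0.23 for Eef1g, 0.07 for Eef2, −0.45 for Eef2k, −0.45 for mitochondrial Tufm and −0.35 for mitochondrial Gfm2. With the offsets Eef2 was −0.04 and not called (edgeR, adjusted p = 0.0539). Against control they were 0.06, 0.36, 0.40, −0.37, 0.11 and −0.20, and in H2O2 against control −0.22, 0.13, 0.33, 0.08, 0.56 and 0.15, of which Eif5a2 against control and Eef2k and Gfm2 in H2O2 did not pass. With the offsets these last were called, Eif5a2 against control at 0.30 (edgeR, adjusted p = 2.08e-05) and, in H2O2 against control, Eef2k at 0.50 (edgeR, adjusted p = 0.000241) and Gfm2 at 0.31 (edgeR, adjusted p = 0.00135). The offsets also turned the direction of Tufm against control (−0.09) and of Eif5a2 (0.14) and Eef1g (−0.17) in H2O2 against control. Against control Tufm lost its call under 6 settings, among them leaving out control replicate 1 or pretreated H2O2 replicate 1, and Gfm2 under 4, among them leaving out control replicate 3 or pretreated H2O2 replicate 2. Gfm2 in H2O2 against control was called without control replicate 3 (edgeR, adjusted p = 0.0381) and without H2O2 replicate 2 (edgeR, adjusted p = 0.0465). In pretreated H2O2 against H2O2, Eefsec (log2 −0.64) and the median of this list (−0.16) were both negative. Both were positive in H2O2 against control (0.24 and 0.33). They differed in direction in pretreated H2O2 against control, where Eefsec was −0.40 and the median 0.29.

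Nonsense-mediated decay removes messenger RNAs that end at an early stop codon, and selenoprotein messages carry a UGA that can be read as such. Of 10 decay factors, 6 were called higher and 2 lower in pretreated H2O2 against H2O2 (median log2 0.20), beside 32.4% and 31.3% of all genes. Pretreated H2O2 against control had 4 higher and 5 lower (median −0.03), beside 33.7% and 29.5%. H2O2 against control had 1 higher and 8 lower (median −0.31), beside 24.6% and 24.1%, or 2 and 5 with the offsets, beside 19.9% and 18.0%. The log2 fold changes in pretreated H2O2 against H2O2 were 0.97 for Smg8, 0.88 for the kinase gene Smg1, −0.26 for Upf3b and −0.13 for Upf2. Against control they were 0.75, 0.05, −0.44 and −0.48, and in H2O2 against control −0.22, −0.83, −0.18 and −0.35. Smg1 did not pass against control, and Upf2 against H2O2 was not called under 8 settings, among them leaving out H2O2 replicate 1 or 2 or pretreated H2O2 replicate 2 or 3. With the offsets Smg1 was called against control (edgeR, 0.24, adjusted p = 0.000176) and was −0.15 in H2O2 against control, and the calls of Upf3b against H2O2 (edgeR, −0.12, adjusted p = 0.0785) and of Upf2 in H2O2 against control (edgeR, −0.11, adjusted p = 0.0605) were lost. Upf3b in H2O2 against control was not called without any of control replicate 1 and H2O2 replicates 2 and 3.

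**Figure D4:**
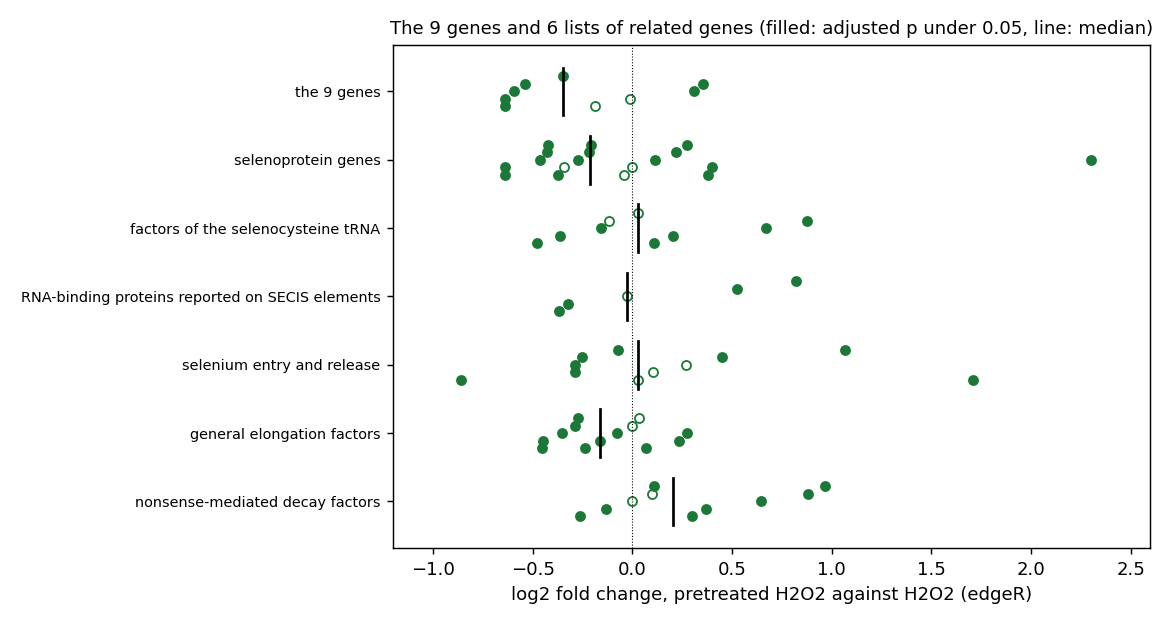
Log2 fold change in pretreated H2O2 against H2O2 by edgeR (horizontal axis) for the 9 genes and 6 lists of related genes; each point is a gene, filled where the adjusted p was under 0.05, and vertical lines are medians. Dio2, listed at 0 in the H2O2 libraries, is not drawn; the 9 genes have their median at −0.35, Txnrd1 lies at 2.30 and Slc7a11 at 1.71.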

How the data were processed

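Per the labels' protocols, TRIzol-extracted RNA was enriched for poly(A) and made into strand-specific dUTP libraries, sequenced as Illumina pairs of 150 bp. The authors deposited a table of estimated counts for 55401 genes as whole numbers, unscaled. They also deposited a table of FPKM, scaled by length and library size by the authors, for 30411 genes, in which the counts recur with 0 differences. Not given in the sources used here are the aligner, the counting program and whether counting used strand. The submitters' processing notes name the human build hg38, but the tables hold mouse identifiers, 30318 of which are in GENCODE M21, and coordinates of GRCm38 (8 of the 9 genes at the M21 positions, Pstk differing). The counts are called estimated because 9836 values equal 4, against 4842 equal to 3 and 3136 equal to 5. Raw counts had been assumed in the plan, and the test for counts was kept.

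From the counts, edgeR 4.0.16 in R 4.3.3 was run with TMM scaling, its default filter by group, which kept 18092 genes, 1 model over all 9 libraries and the quasi-likelihood test, with p-values adjusted by Benjamini-Hochberg over all genes tested and a threshold of 0.05 without a minimum fold. Standard errors were taken from the fold change and its F statistic. Alternatives used limma 3.58.1 on log2(FPKM + 1) and log2(FPKM + 0.1), DESeq2 1.42.0, other filters and scalings, offsets, a replicate block, each library left out, and counts divided by 4, which was added after the data were seen. Offsets were splines per library on length and GC content of the longest GENCODE M21 transcript, available for 99.8% of tested genes.

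The 9 genes were all described. Of each related list, up to 3 genes called higher and 3 called lower with the largest change in pretreated H2O2 against H2O2 and a mean of at least 1 CPM were named, and 2 genes that the rules for naming would include are not reported here. The members and lists were chosen with earlier results of these data known. Codon windows were read from GENCODE M21 transcripts and promoters from the RefSeq table. The error given for a single count covers counting alone, as these reads carry no molecular identifiers and are not independent molecules. Other columns of per-sample values were not present in the tables.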

Additional observations from a re-analysis of the deposited data

How the results depend on the processing

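Over the 21 alternative settings, Sephs2, Sephs1, Scly and Eefsec kept their calls in both comparisons of pretreated H2O2, as did Trnau1ap and Sepsecs in pretreated H2O2 against H2O2, Secisbp2l in both comparisons with control, and Trnau1ap and Eefsec in H2O2 against control. The number of the 9 genes called higher in pretreated H2O2 against H2O2 was 1 with the length and GC offsets, where Secisbp2l lost its call and 30.6% of all genes were higher. The number called higher in pretreated H2O2 against control was 2 with a mean of at least 1 CPM, 2 with DESeq2, 2 with counts divided by 4, 0 with limma on unfiltered log2(FPKM + 1), and 0 to 2 when single libraries were left out. Over all genes, 4980 of 12886, 6372 of 18092, 5521 of 14494 and 6566 of 30411 were higher in the same order. With single libraries left out these were between 5685 of 18686 and 6435 of 19089.

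With the offsets, H2O2 against control changed sign for Sephs1 (0.266), Sephs2 (−0.072), Sepsecs (0.223), Selenoo (−0.0457), Xpot (0.105), Ncl (0.00441), Slc7a11 (0.447), Cth (−0.188), Lrp2 (0.111), Eif5a2 (0.144) and Eef1g (−0.166), all on the log2 scale. So did Eef2 (−0.0373) in pretreated H2O2 against H2O2, and Pstk (0.0812), Tial1 (0.0333) and Tufm (−0.0902) in pretreated H2O2 against control. Secisbp2 in pretreated H2O2 against H2O2 was 0.0413 with DESeq2 size factors, 0.072 with a mean of at least 1 CPM, 0.0412 with DESeq2 and 0.0361 with counts divided by 4. In pretreated H2O2 against control, Trnau1ap was 0.024 and Ftsj1 0.031 with a mean of at least 1 CPM, and Tgs1 was −0.00147 with total counts alone, −0.00254 with limma on log2(FPKM + 1), filtered or not, and −0.00283 with the pseudocount of 0.1. With single libraries left out, Pstk ranged between −0.0128 and 0.13 and Sepsecs between −0.0955 and 0.0403 in H2O2 against control, Secisbp2 between −0.0388 and 0.0422 in pretreated H2O2 against H2O2, and Ftsj1 between −0.0939 and 0.0257 in pretreated H2O2 against control. The cause of these changes was not tested.

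Of calls that were higher, limma on filtered FPKM gave 37.7% in pretreated H2O2 against H2O2, against 50.9% by edgeR, and 41% in pretreated H2O2 against control, against 53.3%. The median of all 11340 genes so tested was −0.12 in pretreated H2O2 against H2O2. Replicate numbers did not pair the libraries, with correlations of same-numbered deviations between −0.0205 and 0.0492. With the replicate block the numbers of the 9 genes called stayed at 2 higher and 5 lower in pretreated H2O2 against H2O2. They stayed at 1 higher and 5 lower in pretreated H2O2 against control, and 3 higher and 1 lower in H2O2 against control. Of all 18092 genes, 5676 were higher and 5646 lower, 5900 higher and 5281 lower, and 4348 higher and 4255 lower in the same order. Scly, with the lowest counts of the 9, and Pstk, whose libraries spread more than those of genes with like counts, had the widest standard errors, about 0.10 and 0.11. Changes larger than these also did not pass. Scly had 0.19 in H2O2 against control (edgeR, adjusted p = 0.135). Pstk had −0.19 in pretreated H2O2 against H2O2 (edgeR, adjusted p = 0.156).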
